A study of Mus musculus with 12 samples.

Results

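Glutathione is the tripeptide thiol that cells use to reduce peroxides and to tag electrophiles for removal. RNA of the genes that make, recycle and use it, together with a few related antioxidant genes, was examined in 12 primary mammary tumours of mice. The genes were chosen by name. They are the cytosolic and kappa glutathione S-transferases (GSTs) of the alpha, mu, pi, theta, omega and kappa classes, the numbered glutathione peroxidases, and Gclc, Gclm, Gss, Gsr, Nqo1, Hmox1, Txnrd1, Srxn1 and Slc7a11. This gave 39 of 56860 genes in the table, namely 22 GST genes, 8 peroxidase genes and 9 single genes. Of the 39, 36 passed the filter on low counts and were tested.

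All mice carried the MMTV-PyMT transgene, in which a mammary promoter drives the polyoma middle T oncogene, and tumours were collected at 4.5 months. The WT group carried MMTV-Cre with the oncogene according to the design text, whereas its strain label names MMTV-PyMT alone. The C3_KO group carried MMTV-Cre and the C3Tdt allele of complement component C3, and the S1pr1_KO group carried MMTV-Cre and S1pr1fl/fl, a floxed receptor for sphingosine-1-phosphate. Each genotype had 4 libraries, and the labels do not say whether each came from a separate mouse, so p-values measure the spread between these samples, which may be technical. Since MMTV directs Cre mainly to mammary epithelium, stroma and immune cells may retain either gene. In bulk tissue, fewer cells of a type and less RNA per cell cannot be told apart.

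Facts of the libraries bear on what follows. Total counts, rounded, were 327122000 to 484002000 in WT, 237064000 to 424585000 in C3_KO and 230432000 to 380336000 in S1pr1_KO. The labels name no batch. C3, the deleted gene of the first knockout, overlapped between C3_KO (41.6 to 75.1 CPM, counts per 1000000 counts of a library after scaling) and WT (43.3 to 182 CPM), and S1pr1 overlapped between S1pr1_KO (2.59 to 7.43 CPM) and WT (2.88 to 8.02 CPM). The levels of the targeted genes therefore did not separate the libraries labelled as knockouts. The 10 markers of mammary epithelium were detected in every library, with summed levels of 3989 to 8005 CPM in WT, 3963 to 6807 CPM in C3_KO and 3063 to 6579 CPM in S1pr1_KO. Salivary gland markers summed to 189307 CPM in S1pr1_KO replicate 1 and 5619 CPM in S1pr1_KO replicate 4, against 8.75 to 262 CPM elsewhere. Milk protein genes summed to 87304 CPM in C3_KO replicate 3, against 1285 to 5945 CPM elsewhere. Adipocyte markers summed to 1332 and 1144 CPM in S1pr1_KO replicates 1 and 2, against 63.2 to 370.7 CPM elsewhere.

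As background, glutamate-cysteine ligase (a catalytic subunit, Gclc, and a modifier, Gclm) and glutathione synthetase (Gss) build glutathione, and glutathione reductase (Gsr) regenerates it with NADPH. Peroxidases spend it on peroxides, Gpx4 on lipid peroxides in membranes, which guards against ferroptosis. GSTs join it to electrophiles. The transcription factor NRF2 (Nfe2l2) binds antioxidant response elements and is known to drive many of these genes.

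The antioxidant response element has the core TGACNNNGC, and the longer site of NRF2 with a small MAF partner reads TGANTCAGC, which contains the AP-1 core TGANTCA. Both were searched on both strands in RefSeq promoters of build GRCm38.p6, from 250 bases before to 50 bases after each start. The second motif was added after the sequences had been seen. Promoters were present for 33 of the 39 genes and not for Gclc, Gsr, Gsta4, Gsta5, Gstt2 and Hmox1. TGACNNNGC stood in 6 of 45 member promoters (13.3%) and in 12.4% of all 32851 promoters, and TGANTCAGC stood in 3 of 45 (6.67%) and in 1.19% of all. The stretches below are shown as examples of members that hold a match, from 2 pairs with a narrow range of FPKM ratios, Gstp1 with Gstp2 and Gclm with Srxn1. As given below, reads can be shared between Gstp1 and Gstp2, and Gclm and Srxn1 each varied little. A link between motifs and these ratios was not tested. Gstp1 and Gpx4 also had a narrow range, and the Gpx4 promoters held neither motif. Capitals mark the match, which is TGACNNNGC on the opposite strand in Gclm and TGANTCAGC in the other 3.
Gstp1, chr19:4037952-4038011, minus strand: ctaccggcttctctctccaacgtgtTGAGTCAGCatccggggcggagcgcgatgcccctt
Gstp2, chr19:4042276-4042335, minus strand: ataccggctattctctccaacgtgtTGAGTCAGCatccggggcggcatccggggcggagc
Gclm, chr3:122245398-122245457, plus strand: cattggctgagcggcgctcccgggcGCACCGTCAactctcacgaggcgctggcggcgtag
Srxn1, chr2:152105454-152105513, plus strand: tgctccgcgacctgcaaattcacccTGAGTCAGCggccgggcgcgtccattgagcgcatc
The match began 74 bases before the start in Gstp1, 89 in Gstp2, 134 in Gclm and 45 in Srxn1. Srxn1 also held TGACNNNGC on the opposite strand, 28 bases after the start and outside the stretch shown. The 250 bases before the start were 78.1% identical between Gstp1 and Gstp2 when aligned. A match describes letters and says nothing about binding.

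Levels per gene length spanned several orders of magnitude. In FPKM, the authors' counts divided by gene length and library total, Gpx1 averaged 238 and Gpx4 237 over the 12 tumours, followed by Gstp1 at 144, Gstp2 at 114, Gpx3 at 75.9, Nqo1 at 30.1, Gsto1 at 24.1, Gstm5 at 23.3 and Gstm1 at 20.1. The first 4 were the members with a mean of at least 100 FPKM, 11 lay from 10 to 100, 12 from 1 to 10 and 12 below 1. The order within neighbours is not firm: Gpx1 ran from 136 to 367 FPKM and Gpx4 from 118 to 444 FPKM. The cystine transporter gene Slc7a11 averaged 0.0756 FPKM. Gsta5 had 51 counts, Gpx5, known from the epididymis, had 7 and Gpx6, known from olfactory tissue, had 2 over all 12 libraries, too few to test.

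**Figure D1:**
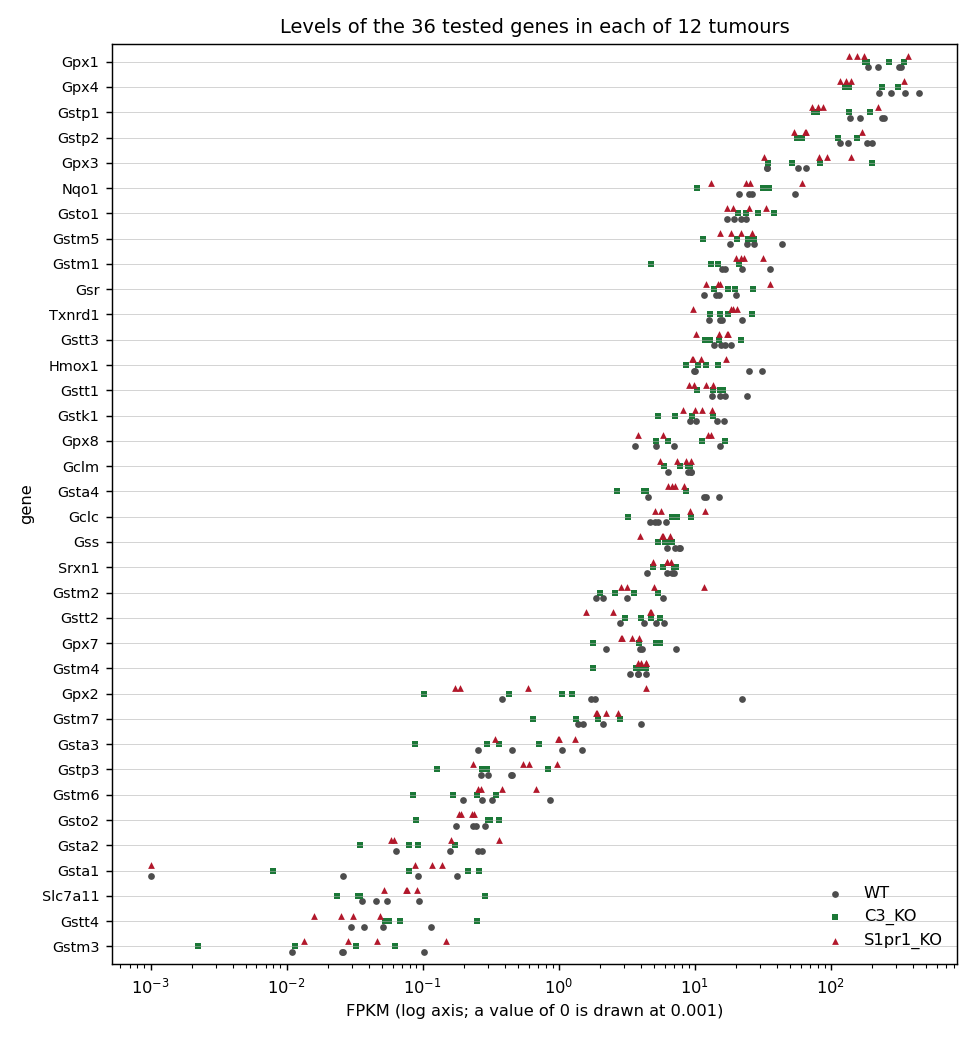
FPKM (log axis) of the 36 tested genes, 1 point per tumour, with WT as circles, C3_KO as squares and S1pr1_KO as triangles, genes ordered by mean. Gpx1 and Gpx4 average 238 and 237 FPKM, and Slc7a11 0.0756 FPKM.

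No gene of the set passed the test in any comparison, and none of the 30660 genes tested did either (edgeR quasi-likelihood test, Benjamini-Hochberg adjustment, adjusted p under 0.05). The percent called was 0% in each of the 3 comparisons. At an unadjusted p under 0.05, 5 of 36 members (13.9%) were lower and 0 higher in C3_KO against WT, where 6.23% of all genes were under that p (3.62% higher, 2.61% lower). In S1pr1_KO against WT, 3 members were lower and 0 higher, where 15.5% of all genes were under it (7.69% higher, 7.78% lower), against 8.33% of the members lower. In S1pr1_KO against C3_KO, 1 was higher and 1 lower, where 3.4% of all genes were under it (1.77% higher, 1.63% lower). Members whose 4 libraries of one genotype did not overlap the 4 of the other numbered 0 in C3_KO against WT, where 3.04% of all genes did not overlap (1.32% higher, 1.72% lower). They numbered 1 in S1pr1_KO against WT (7.58% of all genes, 2.78% higher and 4.8% lower) and 0 in S1pr1_KO against C3_KO (1.31% of all genes, 0.476% higher and 0.838% lower). Fitted log2 fold changes were below 0 for 26 of 36 members in C3_KO against WT (45.8% of all genes), with a median of -0.26 against 0.05 over all genes. They were also below 0 for 26 of 36 in S1pr1_KO against WT (48.3% of all genes), with a median of -0.28 against 0.03. Both comparisons use the same 4 WT libraries. Without the 4 libraries of lowest total counts, 19 of 37 tested members were below 0 in S1pr1_KO against WT, with a median of -0.04, and 23 of 37 in C3_KO against WT. That refit leaves replicate 3 as the only S1pr1_KO library, so it cannot tell library depth from that 1 tumour. In S1pr1_KO against C3_KO, 20 of 36 were below 0 (53.8% of all genes), with a median of -0.08 against -0.03. DESeq2 also called 0 members in each comparison, although it did call genes outside the set in each. Their counts are given in the section on how the results depend on the processing. The values below are therefore descriptions of libraries that vary within each genotype, with tests that did not pass.

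**Figure D2:**
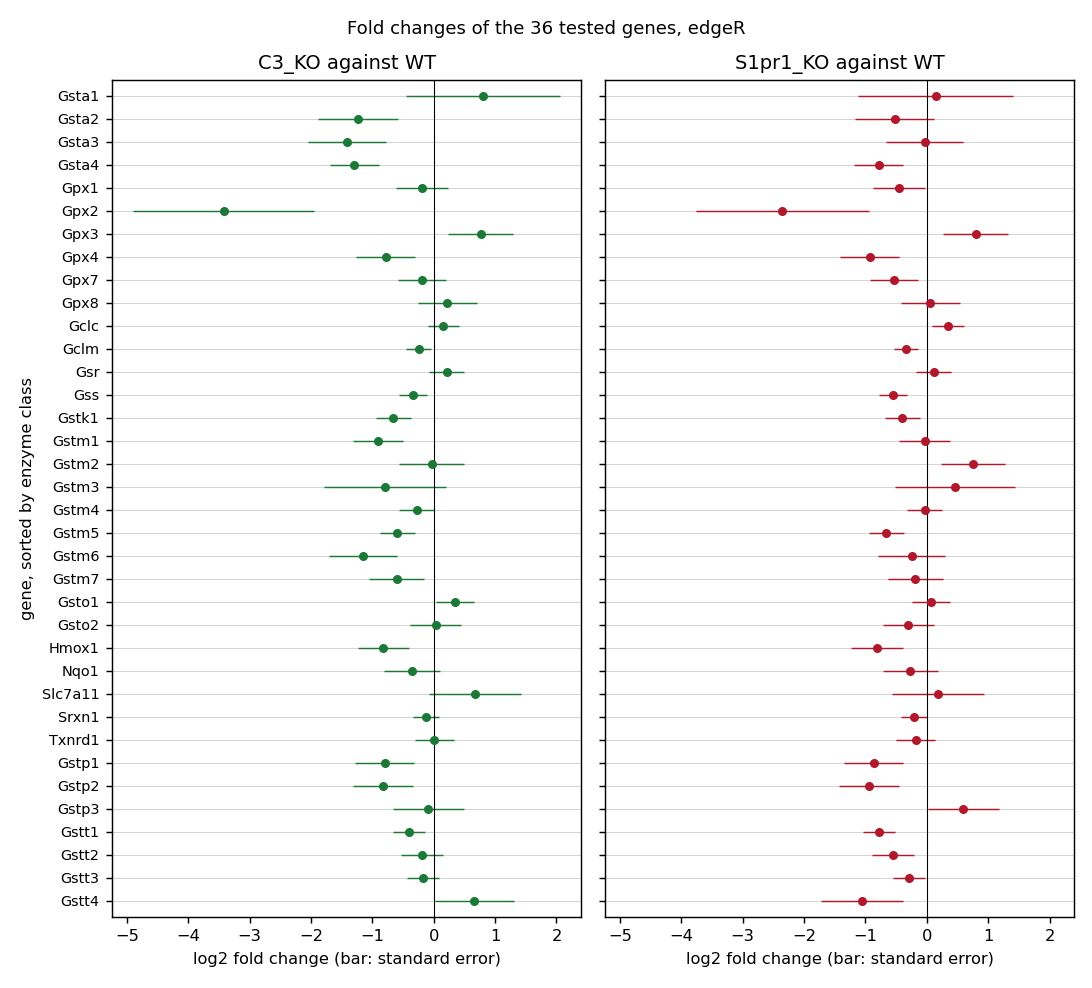
Fitted log2 fold changes (points) with standard errors (bars) of the 36 tested genes, in C3_KO against WT on the left and S1pr1_KO against WT on the right, grouped by enzyme class. Of the 36 points, 26 lie below 0 in each panel, and none passed the adjusted threshold.

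Among the genes of synthesis and reduction, Gss was the one with the smallest p against WT. Gss levels were 51.9, 36.6, 50.1 and 44.3 CPM in WT replicates 1 to 4 and 26.5, 26.3, 43.0 and 29.2 CPM in S1pr1_KO. S1pr1_KO replicates 1, 2 and 4 lay below every WT library, and replicate 3 lay inside the WT range. The log2 fold change was -0.55 ± 0.23 (SE), which did not pass (edgeR adjusted p = 0.285). Over the alternative fits described below, 1 of which left replicate 3 as the only S1pr1_KO library, it ran from -0.71 to -0.040. S1pr1_KO replicates 1, 2 and 4 were also among the 4 libraries of lowest total counts. In C3_KO, Gss was 35.4, 39.9, 43.6 and 25.7 CPM, overlapping WT.

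Gclc and Gclm encode the partners of one enzyme. Gclc was 26.5, 18.9, 19.4 and 21.3 CPM in WT, 23.8, 13.4, 30.2 and 28.7 CPM in C3_KO and 23.9, 34.6, 21.5 and 29.7 CPM in S1pr1_KO. Gclm was 68.2, 39.8, 60.9 and 62.0 CPM in WT, 52.6, 41.7, 53.0 and 47.3 CPM in C3_KO, and 39.5, 41.7, 51.5 and 50.6 CPM in S1pr1_KO. Both genes were highest in replicate 1 and lowest in replicate 2 of WT, and highest in replicate 3 and lowest in replicate 2 of C3_KO. In S1pr1_KO their orders differed, with Gclc highest in replicate 2 and Gclm in replicate 3. The FPKM ratio of Gclm to Gclc ran from 0.722 in S1pr1_KO replicate 2 to 1.88 in WT replicate 3. The FPKM ratio of Gclm to Srxn1, which repairs oxidised peroxiredoxins, ran from 1.12 to 1.43. Both genes also varied little, by 1.73-fold for Gclm and 1.84-fold for Srxn1 between the lowest and highest CPM, the 2 smallest ranges of the 35 members detected in every library. Gsr was 34.9 to 63.2 CPM in WT, 39.1 to 68.8 CPM in C3_KO and 36.3 to 75.5 CPM in S1pr1_KO, and was the most abundant of these genes per length (18.0 FPKM).

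Gpx4, Gpx1 and the pi class genes Gstp1 and Gstp2 carried the highest levels and shared a pattern over libraries. Gpx4 was 883, 383, 659.6 and 506 CPM in WT replicates 1 to 4, 383, 601, 254 and 176 CPM in C3_KO, and 252, 156, 660.4 and 207 CPM in S1pr1_KO. C3_KO replicates 3 and 4 and S1pr1_KO replicates 1, 2 and 4 lay below every WT library, C3_KO replicate 1 lay level with the lowest WT library, and C3_KO replicate 2 and S1pr1_KO replicate 3 lay inside the WT range. Gstp1 was 423, 213, 415 and 268 CPM in WT, 197, 335, 126 and 99.2 CPM in C3_KO, and 141, 86.8, 379.9 and 116 CPM in S1pr1_KO. The same 5 libraries were the lowest for Gstp1, and C3_KO replicate 1 also lay below WT. The FPKM ratio of Gstp1 to Gpx4 stayed between 0.534 and 0.700 while Gpx4 itself varied 5.67-fold in CPM.

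Against WT, the log2 fold change of Gpx4 was -0.78 ± 0.48 (SE) in C3_KO (edgeR adjusted p = 0.765) and -0.93 ± 0.48 (SE) in S1pr1_KO (edgeR adjusted p = 0.37). That of Gstp1 was -0.80 ± 0.48 (SE) in C3_KO (edgeR adjusted p = 0.765) and -0.87 ± 0.48 (SE) in S1pr1_KO (edgeR adjusted p = 0.397). Without S1pr1_KO replicate 3, the values in S1pr1_KO were -1.52 for Gpx4 (edgeR adjusted p = 0.0534) and -1.48 for Gstp1 (edgeR adjusted p = 0.0556), still not called, with 4.25% of all genes called. The 4 libraries with the lowest total counts, C3_KO replicate 4 (237064000) and S1pr1_KO replicates 1, 2 and 4 (248744000, 284051000 and 230432000), had the 4 lowest Gpx4 levels. Without them the S1pr1_KO values turned to 0.17 for Gpx4 and 0.25 for Gstp1, from the 1 S1pr1_KO library left, which is assumed to vary like the other groups. The summed mammary epithelium markers were also lowest in S1pr1_KO replicates 1, 2 and 4 (3063, 3525 and 3520 CPM) and in C3_KO replicate 4 (3963 CPM), but stood at 6807 CPM in C3_KO replicate 3. The part of library depth and of epithelial content in these levels was not tested.

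**Figure D3:**
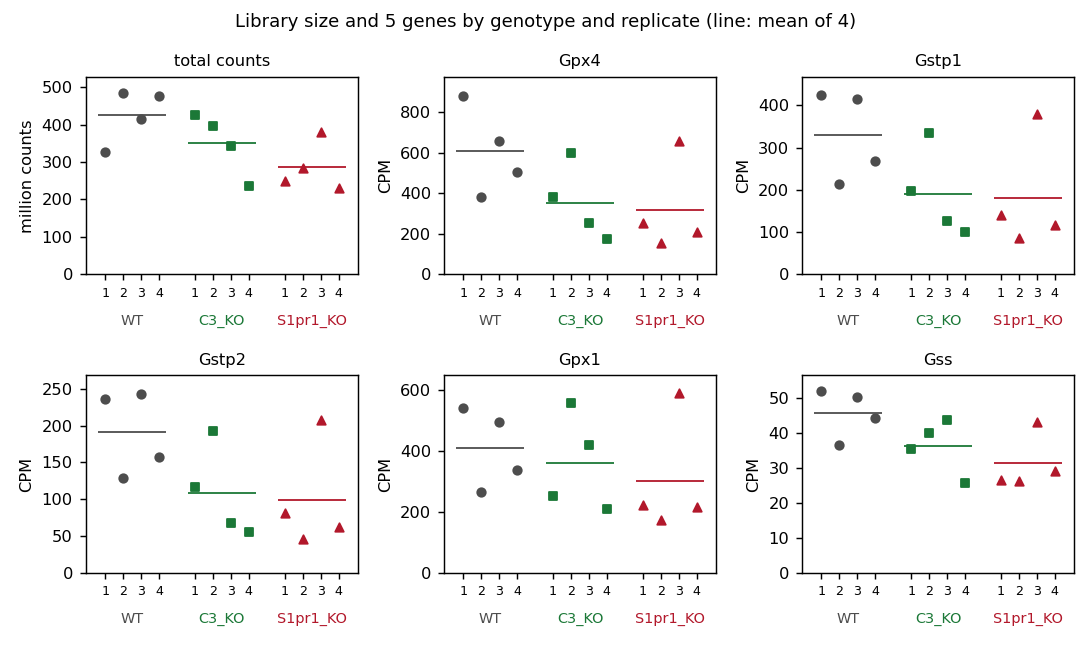
Total counts per library, and CPM of Gpx4, Gstp1, Gstp2, Gpx1 and Gss, by genotype and replicate (points), with the mean of 4 as a line. S1pr1_KO replicate 3 stands apart from the other 3 S1pr1_KO libraries, with Gpx4 at 660.4 CPM against 156 to 252 CPM.

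Gpx1, the cytosolic peroxidase, was 539.7, 266, 495 and 338 CPM in WT, 251, 555, 420.3 and 208 CPM in C3_KO, and 221, 173, 589 and 216 CPM in S1pr1_KO. C3_KO replicates 1 and 4 and S1pr1_KO replicates 1, 2 and 4 lay below WT. C3_KO replicate 3 differed from its Gpx4 position: there the FPKM ratio of Gpx1 to Gpx4 was 1.98, against 0.731 to 1.41 in the other 11 libraries. Every WT library had more Gpx4 than Gpx1 per length, with ratios of 0.731 to 0.898.

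Gstp2 was 237, 129, 243 and 157 CPM in WT, 117, 192, 67.6 and 55.1 CPM in C3_KO, and 81.4, 45.5, 208 and 62.4 CPM in S1pr1_KO. Its log2 fold change in S1pr1_KO against WT was -0.95 ± 0.49 (SE, edgeR adjusted p = 0.366). Without the 4 libraries of lowest total counts it was 0.17, with replicate 3 as the only S1pr1_KO library left. The pi genes neighbour each other, and reads can be shared between them. Of the stretches of 100 bases in Gstp2 transcripts of GENCODE M21, 41.6% also stood in Gstp1, and 25.1% of those in Gstp1 stood in Gstp2. The pseudogene Gstp-ps held 23.3% of the Gstp2 stretches and 10.8% of the Gstp1 stretches, and 46.9% of the Gstp2 stretches stood in any other gene. Gstp-ps had 0.108 to 0.154 times the count of Gstp2. The FPKM ratio of Gstp1 to Gstp2, 1.19 to 1.37 in all libraries, is uncertain for this reason. Gpx4 shares 25.2% of its stretches with the pseudogene Gpx4-ps2, which had 0.213 to 0.252 times the count of Gpx4. The third pi gene, Gstp3, shared no stretch and was low, at 0.13 to 0.992 CPM.

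Other peroxidases varied between single tumours. Gpx3, the secreted plasma form, was 70.4, 102, 131 and 64.8 CPM in WT, 58.2, 168, 103 and 298 CPM in C3_KO, and 194, 114, 282 and 50.04 CPM in S1pr1_KO. C3_KO replicate 4 and S1pr1_KO replicates 3 and 1 were highest, and all 3 genotypes overlapped. Gpx3 made up 38.7% of the summed peroxidase FPKM in C3_KO replicate 4 and 4.05% in WT replicate 1. Adipocytes are a known source of Gpx3. Adipocyte markers summed to 128 CPM in C3_KO replicate 4, 86.7 CPM in S1pr1_KO replicate 3 and 1332 CPM in S1pr1_KO replicate 1. They summed to 1144 CPM in S1pr1_KO replicate 2 and 371 CPM in C3_KO replicate 1, where Gpx3 was 114 and 58.2 CPM. The part of adipocytes in the Gpx3 levels was not tested. Gpx2, the epithelial form known from the gut, was 81.7, 1.19, 6.00 and 6.19 CPM in WT, 3.12, 0.358, 4.30 and 1.10 CPM in C3_KO, and 2.12, 0.457, 15.5 and 0.468 CPM in S1pr1_KO. WT replicate 1 held the highest level, 228-fold above the lowest in C3_KO replicate 2, the widest range of any member detected in every library. The log2 fold change of Gpx2 in C3_KO against WT was -3.42 ± 1.47 (SE, edgeR adjusted p = 0.765). It was -1.01 without WT replicate 1. The forms of the secretory pathway, Gpx7 and Gpx8, ran from 2.52 to 9.19 CPM and from 4.35 to 16.4 CPM, with overlap between all genotypes.

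**Figure D4:**
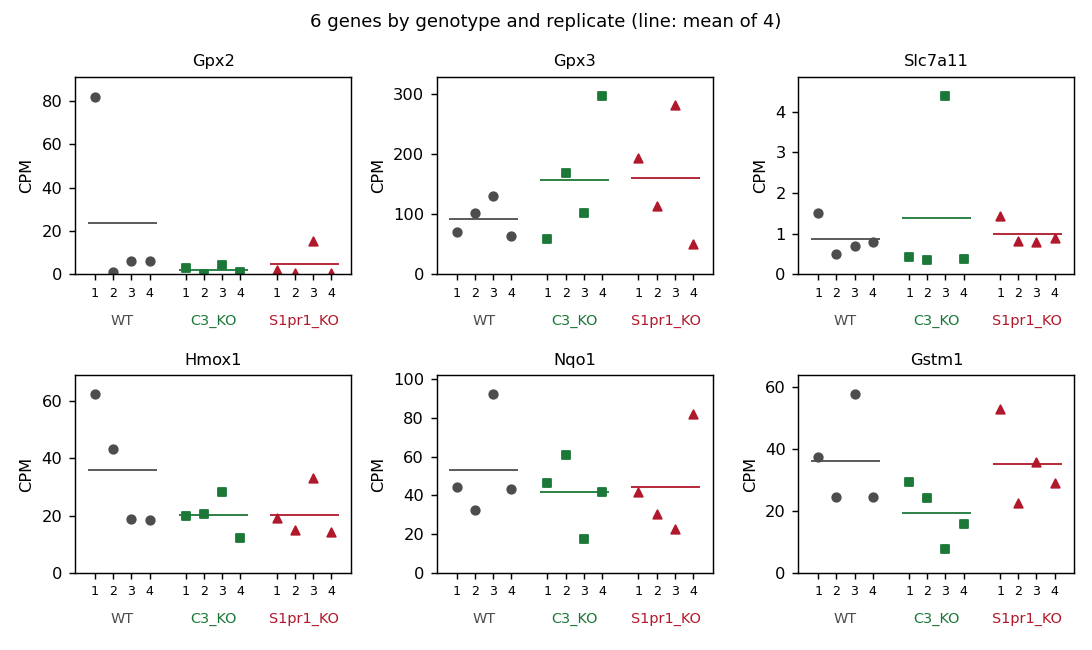
CPM of Gpx2, Gpx3, Slc7a11, Hmox1, Nqo1 and Gstm1 by genotype and replicate (points), with the mean of 4 as a line. Single libraries set several means, such as WT replicate 1 for Gpx2 at 81.7 CPM and C3_KO replicate 3 for Slc7a11 at 4.38 CPM.

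In the mu class, which conjugates a wide range of electrophiles, fitted values were below 0 for 7 of 7 genes in C3_KO against WT (45.8% of all genes), with a median log2 fold change of -0.60, and none passed. Gstm1, Gstm5, Gstm6 and Gstm7 were each highest in WT replicate 3 and lowest in C3_KO replicate 3, so these genes are not separate observations. Gstm1 was 37.4, 24.4, 57.6 and 24.6 CPM in WT, 29.2, 24.1, 7.62 and 15.7 CPM in C3_KO, and 53.0, 22.7, 35.8 and 28.9 CPM in S1pr1_KO. C3_KO replicates 2, 3 and 4 lay below every WT library. The log2 fold change was -0.91 ± 0.41 (SE) in C3_KO against WT (edgeR adjusted p = 0.765) and 0.87 ± 0.41 (SE) in S1pr1_KO against C3_KO (edgeR adjusted p = 1). Gstm5, the most abundant mu gene per length, was 26.8, 30.6, 61.4 and 36.7 CPM in WT, 32.7, 29.2, 15.9 and 25.4 CPM in C3_KO, and 22.2, 21.6, 26.0 and 28.6 CPM in S1pr1_KO. WT replicate 3 was highest and both knockouts overlapped WT. Its log2 fold change was -0.59 ± 0.28 (SE) in C3_KO (edgeR adjusted p = 0.765) and -0.66 ± 0.28 (SE) in S1pr1_KO (edgeR adjusted p = 0.297).

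The remaining mu genes were less abundant. Gstm2 was 3.65, 9.67, 5.84 and 3.75 CPM in WT, 8.48, 6.69, 3.67 and 3.51 CPM in C3_KO, and 22.1, 6.49, 5.35 and 4.60 CPM in S1pr1_KO. Replicate 1 of S1pr1_KO was the highest, and the genotypes overlapped. Its log2 fold change of 0.79 in S1pr1_KO against C3_KO (SE 0.53, edgeR adjusted p = 1) turned to -0.030 when C3_KO replicate 3 and S1pr1_KO replicates 1 and 4 were left out, the tumours with the milk or salivary signal. Gstm4 ran from 3.32 to 8.30 CPM and Gstm7 from 1.13 to 7.05 CPM, each lowest in C3_KO replicate 3. Gstm6 was 0.743, 0.533, 1.88 and 0.414 CPM in WT, 0.648, 0.372, 0.184 and 0.405 CPM in C3_KO, and 0.865, 0.392, 0.594 and 1.16 CPM in S1pr1_KO. It stood at a log2 fold change of 0.90 ± 0.55 (SE) in S1pr1_KO against C3_KO (edgeR adjusted p = 1). Gstm3 did not exceed 0.218 CPM.

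In the alpha class, known for the detoxification of lipid peroxidation products, Gsta4, which handles 4-hydroxynonenal, had the smallest p of the set in C3_KO against WT. Gsta4 was 17.5, 5.63, 20.9 and 15.6 CPM in WT, 10.3, 3.78, 5.83 and 4.47 CPM in C3_KO, and 10.2, 8.04, 9.62 and 6.86 CPM in S1pr1_KO. WT replicate 2 lay among the knockout values and the other 3 WT libraries lay above all of them. The log2 fold change was -1.29 ± 0.40 (SE) in C3_KO (edgeR adjusted p = 0.765) and -0.78 ± 0.40 (SE) in S1pr1_KO (edgeR adjusted p = 0.361), neither past the threshold. Gsta3 was 5.27, 1.09, 7.10 and 2.07 CPM in WT, 1.48, 0.425, 1.40 and 2.52 CPM in C3_KO, and 6.50, 3.29, 1.64 and 3.74 CPM in S1pr1_KO. Its log2 fold change was -1.41 ± 0.64 (SE) in C3_KO against WT (edgeR adjusted p = 0.765) and 1.38 ± 0.64 (SE) in S1pr1_KO against C3_KO (edgeR adjusted p = 1). Gsta1 and Gsta2 did not exceed 0.269 and 0.37 CPM, and 80.6% of the 100-base stretches of Gsta1 also stand in other genes.

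In the theta class, Gstt1 was the 1 member of the 36 whose S1pr1_KO and WT libraries did not overlap, where 4.8% of all genes were lower without overlap. Gstt1 was 29.1, 36.3, 25.7 and 21.4 CPM in WT and 20.9, 15.96, 16.7 and 11.8 CPM in S1pr1_KO, and the highest S1pr1_KO library lay just under the lowest WT library. Its log2 fold change was -0.78 ± 0.26 (SE, edgeR adjusted p = 0.241). In C3_KO Gstt1 was 22.002, 27.4, 22.4 and 13.0 CPM, overlapping both other groups, and the log2 fold change of S1pr1_KO against C3_KO was -0.38 ± 0.26 (SE, edgeR adjusted p = 1). Fitted values in S1pr1_KO against WT were below 0 for 4 of 4 theta genes (48.3% of all genes), with a median log2 fold change of -0.67. Gstt3, the theta gene with the highest FPKM, was 93.9 CPM in C3_KO replicate 2 and 44.5 to 77.9 CPM elsewhere. Gstt2 had its lowest level, 5.67 CPM, in S1pr1_KO replicate 4, against 11.5 to 24.3 CPM elsewhere. Gstt4 was 0.0423, 0.112, 0.0555 and 0.0310 CPM in WT, 0.0486, 0.0620, 0.0729 and 0.202 CPM in C3_KO, and 0.0546, 0.0189, 0.0176 and 0.0260 CPM in S1pr1_KO. Gstt4 had the smallest p of the set in S1pr1_KO against C3_KO, a log2 fold change of -1.73 ± 0.68 (SE, edgeR adjusted p = 1), at 260 counts over all 12 libraries.

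The omega class gene Gsto1, which reduces mixed disulfides, was 55.4, 43.8, 38.2 and 41.3 CPM in WT, 39.7, 65.4, 83.7 and 39.2 CPM in C3_KO, and 39.8, 38.5, 75.6 and 32.9 CPM in S1pr1_KO. C3_KO replicates 2 and 3 and S1pr1_KO replicate 3 lay above WT, and the other knockout libraries lay within or below the WT range. Gsto2 did not exceed 0.817 CPM. The kappa gene Gstk1, a mitochondrial and peroxisomal form, was 15.5, 14.8, 26.5 and 22.6 CPM in WT, 18.7, 8.78, 11.3 and 11.4 CPM in C3_KO, and 18.8, 11.3, 13.3 and 16.7 CPM in S1pr1_KO. C3_KO replicates 2, 3 and 4 lay below WT, and the log2 fold change was -0.66 ± 0.29 (SE, edgeR adjusted p = 0.765).

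Pi genes made up 48.7 to 76.4% of the summed FPKM of the 22 GST genes, with a median of 65.0%. In WT the pi share was 76.4, 65.6, 71.0 and 69.6%. It was 53.0, 48.7 and 55.0% in S1pr1_KO replicates 1, 2 and 4 but 75.1% in replicate 3, and 64.4, 73.9, 56.4 and 54.5% in C3_KO. The mu share was 23.6, 20.4 and 21.4% in S1pr1_KO replicates 1, 2 and 4, above 8.65 to 18.2% in all other libraries. The omega share was 16.4% in C3_KO replicate 3 and 2.79 to 9.61% elsewhere. The summed GST level was 392 to 626 FPKM in WT, 232 to 473 FPKM in C3_KO and 261 to 519 FPKM in S1pr1_KO.

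**Figure D5:**
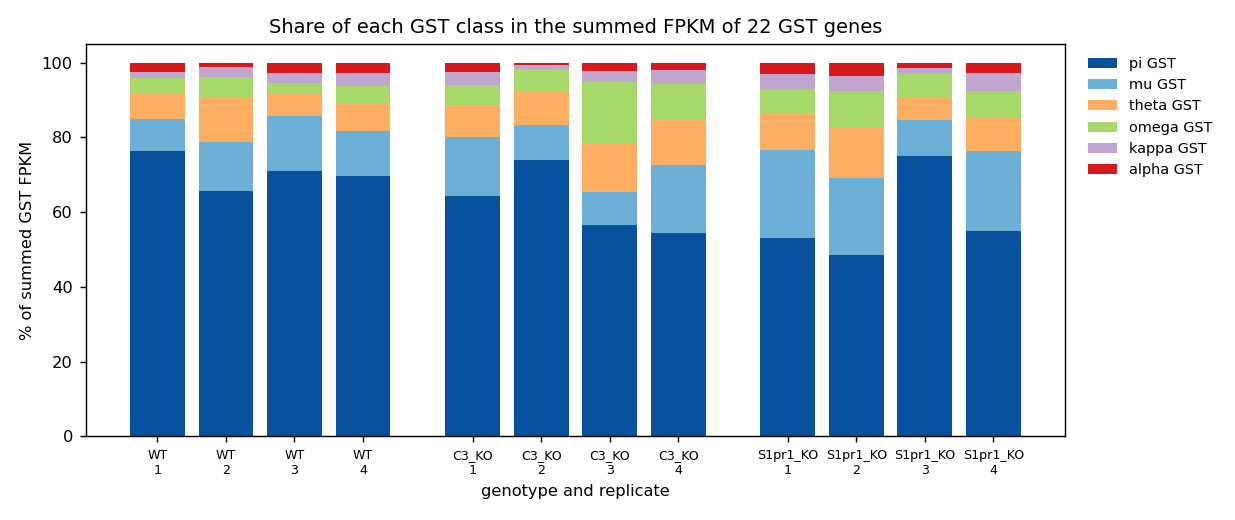
Stacked bars of the percent of summed GST FPKM held by each of 6 classes, 1 bar per library. The pi class is the largest part of every bar, from 48.7% in S1pr1_KO replicate 2 to 76.4% in WT replicate 1.

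Of the genes known as NRF2 targets, none passed the test. Nqo1, a quinone reductase and a common readout of NRF2, was 44.4, 32.7, 92.4 and 43.1 CPM in WT, 46.3, 60.9, 17.5 and 42.0 CPM in C3_KO, and 41.7, 30.3, 22.7 and 81.8 CPM in S1pr1_KO. WT replicate 3 and S1pr1_KO replicate 4 were highest, and C3_KO replicate 3 was lowest. Hmox1, which breaks down haem and is also abundant in macrophages, was 62.6, 43.4, 18.7 and 18.6 CPM in WT, 19.9, 20.7, 28.3 and 12.2 CPM in C3_KO, and 19.1, 14.9, 33.2 and 14.2 CPM in S1pr1_KO. WT replicates 1 and 2 lay above all other libraries. The log2 fold change of Hmox1 in S1pr1_KO against WT was -0.82 ± 0.42 (SE, edgeR adjusted p = 0.366). It was -0.064 without the 4 libraries of lowest total counts, where replicate 3 is the only S1pr1_KO library left. The summed macrophage markers were 442 and 452 CPM in WT replicates 1 and 2 and 174 to 472 CPM in the others. The part of macrophages in the Hmox1 levels was not tested.

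Txnrd1, the cytosolic thioredoxin reductase, was 89.6 to 181 CPM in WT, 86.4 to 201 CPM in C3_KO and 77.4 to 149 CPM in S1pr1_KO. Slc7a11, which imports cystine for glutathione synthesis, was 1.51, 0.496, 0.695 and 0.806 CPM in WT, 0.435, 0.363, 4.38 and 0.391 CPM in C3_KO, and 1.43, 0.822, 0.807 and 0.899 CPM in S1pr1_KO. C3_KO replicate 3 held the highest Slc7a11, Txnrd1 and Gsto1 and the lowest Nqo1, Gstm1 and Gstm5 of all libraries. Besides milk protein transcripts, this library had the highest sums of skin keratinocyte markers (549.5 CPM against 2.99 to 96.8 elsewhere), neutrophil markers (83.3 CPM against 2.61 to 34.2) and red cell markers (1448 CPM against 66.7 to 747) and the lowest of macrophage markers (174 CPM against 315 to 472). Their part in these levels was not tested.

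Other genes of the pathway came from 9 lists with 108 genes, of which 105 were tested: regulators of NRF2, further transferases, thioredoxins and peroxiredoxins, superoxide dismutases and catalase, glutathione turnover, cysteine supply, NADPH supply, further NRF2 targets and ferroptosis. None of the 105 passed in any comparison, in either direction. Fitted values were below 0 for 64 of 105 in C3_KO against WT and for 64 of 105 in S1pr1_KO against WT. The shares over all genes were 45.8% and 48.3%. The lists went both ways: thioredoxins, peroxiredoxins and glutaredoxins were below 0 for 16 of 18 in C3_KO (median log2 fold change -0.24) and 15 of 18 in S1pr1_KO (median -0.38), and superoxide dismutases and catalase for 5 of 5 in both (medians -0.33 and -0.21). Glutathione turnover and export genes were above 0 for 10 of 16 in C3_KO (median 0.14) and 9 of 16 in S1pr1_KO (median 0.16), and cysteine supply genes for 6 of 9 in both (medians 0.17 and 0.07).

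In S1pr1_KO against WT, the gene of smallest p was below 0 in 5 of the 9 lists (Txn1, Clic1, Sod1, Rbx1 and Blvra) and above 0 in 4 (Nnt, Abcc4, Slc1a5 and Alox12). None of them passed the edgeR test. Thioredoxin, Txn1, was 239, 219.8, 253 and 251 CPM in WT, 185, 182, 211 and 120.0 CPM in C3_KO, and 127, 98.2, 147 and 142 CPM in S1pr1_KO, so all knockout libraries lay below all WT libraries. In C3_KO against WT, 1.72% of all genes were lower without overlap, and both knockouts are set against the same 4 WT libraries. The log2 fold change of Txn1 in S1pr1_KO against WT was -0.90 ± 0.22 (SE, edgeR adjusted p = 0.189). Nnt, the mitochondrial transhydrogenase that makes NADPH, was 24.2, 17.0, 20.6 and 24.1 CPM in WT and 30.1, 32.7, 36.7 and 39.5 CPM in S1pr1_KO, without overlap. Over all genes, 2.78% were higher and 4.8% lower without overlap in S1pr1_KO against WT. For Nnt the log2 fold change was 0.70 ± 0.19 (SE, edgeR adjusted p = 0.216). The superoxide dismutase gene Sod1 also parted S1pr1_KO from WT, with a log2 fold change of -0.83 ± 0.29 (SE, edgeR adjusted p = 0.246). The other leaders below 0 were the chloride channel gene Clic1 at a log2 fold change of -0.81, Rbx1, a subunit of the ubiquitin ligase that acts on NRF2, at -0.64, and the biliverdin reductase gene Blvra at -0.49. Those above 0 were the exporter gene Abcc4 at a log2 fold change of 1.14, the amino acid transporter gene Slc1a5 at 1.20 and the lipoxygenase gene Alox12 at 0.78. Alox12 and Blvra also parted S1pr1_KO from WT, and the edgeR adjusted p of these 6 genes ran from 0.234 to 0.271. In C3_KO against WT, the smallest p over all lists was that of Aldh3a1. The aldehyde dehydrogenase gene Aldh3a1 stood at a log2 fold change of 4.81 ± 1.23 (SE) in C3_KO against WT (edgeR adjusted p = 0.765), with levels of 2.90, 0.197, 1.28 and 31.3 CPM in C3_KO replicates 1 to 4 and 0.133 to 0.472 CPM in WT. Replicates 1, 3 and 4 of C3_KO lay above WT and replicate 2 within it.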

How the data were processed

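Total RNA of 12 tumours, 4 per genotype, was sequenced. The authors deposited raw counts per gene as whole numbers, a gene length, and FPKM values. Of 682320 deposited FPKM values, 682318 equalled the count divided by length and column total within a relative tolerance of 1e-04. StringTie and GRCm39 (mm39) are named per the submitters' processing notes. The aligner, counter and strand handling were not given in the sources used here. All sample columns were used.

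Groups came from the genotype label, and replicates were numbered in accession order, so numbers pair nothing. Counts were tested with edgeR 4.0.16 in R 4.3.3 (filterByExpr, TMM, robust quasi-likelihood F-test, all 12 libraries, Benjamini-Hochberg over 30660 genes, adjusted p under 0.05), checked on simulated data. There, in C3_KO against WT, 62 of 100 abundant genes changed 4-fold and 95 of 100 changed 16-fold were recovered, with 6 false calls. Smaller changes, such as those of most members, were not simulated. CPM use TMM factors, and FPKM compare genes. Alternatives used DESeq2 1.42.0, limma 3.58.1, other scalings, filters and fewer libraries. Full statistics are given for the 6 members of smallest p per comparison and for Gpx4 and Gstp1, added after their values were seen, and library values for the most abundant member of each class. Of the pathway lists, the gene of smallest p was eligible. A planned comparison of protein sequences was replaced by shared 100-base stretches of GENCODE M21 transcripts (GRCm38). Members and lists were chosen with earlier results of these data known.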

Additional observations from a re-analysis of the deposited data

Results flagged for a closer look

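Within each genotype, the 4 libraries of each tested member were compared on a log2(CPM + 0.1) scale, and a library was picked out where its gap to the nearest other made up more of the whole range than Dixon's 95% criterion allows. Of 108 groups checked, 3 met it, and chance gives about 1 in 20. Slc7a11 was 4.38 CPM in C3_KO replicate 3 against 0.363 to 0.435 CPM in the other 3 C3_KO libraries. Gstt3 was 93.9 CPM in C3_KO replicate 2 against 46.8 to 49.6 CPM in the others. Gsto2 was 0.432 CPM in WT replicate 4 against 0.631 to 0.67 CPM in the other WT libraries.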

How the results depend on the processing

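Of 23 alternatives, 21 were planned and 2 were added after the data were seen (leaving out the 3 tumours with high milk or salivary signal, and leaving out the 4 of lowest total counts, with only 1 S1pr1_KO library remaining). No member was called in C3_KO against WT or S1pr1_KO against C3_KO under any of them. In S1pr1_KO against WT, limma-voom with quality weights called 8 of 36 members lower (Gpx1, Gpx2, Gpx4, Gss, Gstm5, Gstp1, Gstp2 and Gstt1), where it called 25.5% of all genes (14.5% lower) and gave S1pr1_KO replicate 3 the lowest weight of all libraries, 0.282. No other alternative called a member. Counts of all genes called, 0 in each main fit, were 82 (DESeq2), 5 (limma-voom), 1 (log2(FPKM + 1)) and 4 (without the 4 libraries of lowest total counts) in C3_KO against WT. In S1pr1_KO against WT they were 955 (DESeq2), 7828 (limma-voom), 33 (log2(FPKM + 1)), 43 (log2(FPKM + 0.1)), 10 (no filter), 23 (CPM filter), 68 (only the 8 libraries compared) and 6 (without the 4 libraries). In S1pr1_KO against C3_KO they were 114 (DESeq2) and 5 (without the 4 libraries). Leaving out 1 library at a time gave 0 to 8, 0 to 1330 and 0 to 3 genes in the 3 comparisons in that order, the 1330 without S1pr1_KO replicate 3. Of these refits, 0 called a member. Members with values below 0 in S1pr1_KO against C3_KO numbered 12 without the 3 libraries and 13 without the 4, against 20. Over all alternatives, members below 0 numbered 22 to 28 in C3_KO against WT and 19 to 29 in S1pr1_KO against WT, against 26 in each. The 22 and a 19 came with the CPM filter, which left 29 members tested. Examples of values nearer 0 by over 1.5-fold were Hmox1 (-0.064, without the 4 libraries, S1pr1_KO against WT) and several in S1pr1_KO against C3_KO. There they were Gstm6 (0.09) and Gsta3 (0.76) without the 3 tumours, Gstt4 (-1.07) without C3_KO replicate 4 and Gstm2 (0.012) without S1pr1_KO replicate 1. Over all alternatives, the values nearest 0 in C3_KO against WT were -0.38 for Gsta3 and -1.01 for Gpx2. In S1pr1_KO against C3_KO they were -0.10 for Gstt4 and 0.48 for Gsta3. Single members reversed without the 4 libraries, Gpx4 (0.17), Gstp1 (0.25) and Gstp2 (0.17) in S1pr1_KO against WT and Gstm2 (-0.19) in S1pr1_KO against C3_KO, and Gstm2 also without the 3 (-0.030). The cause was not tested. No paired analysis was possible because the labels give the groups no shared replicate numbers.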

Other observations

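Nfe2l2, the gene of NRF2 itself, and Keap1 were singled out after their values were seen. It was 109 CPM in C3_KO replicate 3 and 42.5 to 64.2 CPM in the other 11 libraries. Keap1, whose product holds NRF2 in check, was 59.5 CPM in that library and 62.8 to 103 CPM in the others. C3_KO replicate 3 also had the lowest level of 9 of the 36 tested members and the highest of 4, while WT replicate 3 had the highest of 9 and WT replicate 1 the highest of 8.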
